A study of Homo sapiens with 18 samples.

Results

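GDF15, INHBE, INHBA, TGFB1, TGFB2 and TGFB3 are 6 genes of the transforming growth factor-β (TGF-β) superfamily, and they were followed across all libraries of the study. The members were taken by gene symbol from the deposited table of normalised read counts, where 6 of 56269 rows carried these symbols. GDF15 and INHBE were chosen by their rise in normalised counts with the oxidant in PBS-incubated cells, so the values of that comparison are given as a description with no test, and the other 4 are ligands of the same superfamily. RNA was measured in IMR90 cells, primary human lung fibroblasts kept as an established line, in 6 groups of 3 replicates (18 libraries). All cells grew in serum-containing medium and spent 6 h in PBS or in 20 μg/ml hyaluronan (HA) purified from the medium of naked mole-rat skin fibroblasts (NSF). cNSF-HA was the control preparation, heated together with heat-inactivated hyaluronidase, and is mostly HA of very high molecular mass. fNSF-HA was the same HA partially fragmented with hyaluronidase that was then inactivated by heat. HA was removed, and in 3 of the groups 200 μM of the oxidant tert-butyl hydroperoxide (tBHP) then acted on the cells for 1 h, followed by 5 h before collection. The other 3 groups, PBS, cNSF and fNSF, received no tBHP and were collected when the pre-incubation ended, so that the groups with tBHP were also 6 h later and had had their medium removed. Every change with tBHP given here is the difference between these groups, in which the oxidant, the later time and the removal of the medium cannot be told apart. The replicates come from 1 cell line, and p-values measure the spread between these cultures.

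Ligands of this superfamily are secreted as dimers of a precursor protein, which is cut by a protease to release the active part, and most of them signal through pairs of type I and type II receptor kinases that phosphorylate SMAD proteins. TGF-β1, TGF-β2 and TGF-β3, the products of TGFB1, TGFB2 and TGFB3, are held latent in the matrix and are known in fibroblasts for driving collagen synthesis and the myofibroblast state. INHBA encodes the βA chain of activin A and INHBE the βE chain of activin E, which is known mainly from liver. GDF15 encodes a distant member of the superfamily whose receptor GFRAL acts with RET in the hindbrain, and its transcript is widely used as a marker of cellular stress. ATF4 and CHOP (DDIT3), transcription factors of the integrated stress response, are known to induce GDF15 and INHBE, and p53 is also known to induce GDF15.

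The members lie on 5 chromosomes. In the GENCODE 29 annotation of GRCh38, GDF15 is at chr19:18374731-18389176 (+ strand), INHBE at chr12:57452323-57459280 (+), INHBA at chr7:41667168-41705834 (-), TGFB1 at chr19:41301587-41353911 (-), TGFB2 at chr1:218346235-218444619 (+) and TGFB3 at chr14:75958099-75982991 (-). The library kit does not mark strand. TGFB1 shares 215 exon bases (6.64% of its exons) with HNRNPUL1 on the opposite strand, and TGFB3 shares 163 (3.32%) with TGFB3-AS1, so reads in these bases cannot be assigned by strand. TGFB2-OT1 on the same strand shares 1371 exon bases (26.6%) with TGFB2 and is listed at 0 in all libraries, while a gene of a microRNA inside a GDF15 intron had 0 to 12 normalised counts.

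Promoter windows of 250 bases before the start site were found for 5 of the 6 members in the RefSeq table of GRCh38.p14, TGFB3 having 2 windows for separate start sites. INHBE had no entry in that table. The windows of GDF15, which rose most, and of the TGF-β genes, which moved in opposite directions, are printed here 5′ to 3′ on the gene strand, with TATAAA, the core of the TATA box, in capitals.
GDF15, chr19:18385908-18386157 (+): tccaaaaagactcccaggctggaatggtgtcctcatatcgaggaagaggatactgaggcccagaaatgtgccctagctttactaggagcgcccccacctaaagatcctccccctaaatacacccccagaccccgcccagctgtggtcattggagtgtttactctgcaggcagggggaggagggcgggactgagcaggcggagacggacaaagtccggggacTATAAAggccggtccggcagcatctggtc
TGFB1, chr19:41353923-41354172 (-): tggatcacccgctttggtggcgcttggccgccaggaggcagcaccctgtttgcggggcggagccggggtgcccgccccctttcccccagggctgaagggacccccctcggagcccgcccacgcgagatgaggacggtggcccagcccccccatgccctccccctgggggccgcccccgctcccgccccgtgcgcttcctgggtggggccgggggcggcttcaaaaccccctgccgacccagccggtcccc
TGFB2, chr1:218345086-218345335 (+): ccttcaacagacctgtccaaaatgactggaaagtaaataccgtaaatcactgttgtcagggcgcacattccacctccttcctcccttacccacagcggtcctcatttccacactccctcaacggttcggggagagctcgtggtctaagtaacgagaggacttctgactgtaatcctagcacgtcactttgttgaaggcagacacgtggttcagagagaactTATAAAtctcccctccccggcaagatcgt
TGFB3, upstream start, chr14:75983012-75983261 (-): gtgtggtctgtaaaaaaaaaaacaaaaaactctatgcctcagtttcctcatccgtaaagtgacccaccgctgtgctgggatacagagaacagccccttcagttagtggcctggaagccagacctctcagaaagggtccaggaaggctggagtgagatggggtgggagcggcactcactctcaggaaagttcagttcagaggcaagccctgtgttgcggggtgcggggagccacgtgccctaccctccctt
TGFB3, downstream start, chr14:75981996-75982245 (-): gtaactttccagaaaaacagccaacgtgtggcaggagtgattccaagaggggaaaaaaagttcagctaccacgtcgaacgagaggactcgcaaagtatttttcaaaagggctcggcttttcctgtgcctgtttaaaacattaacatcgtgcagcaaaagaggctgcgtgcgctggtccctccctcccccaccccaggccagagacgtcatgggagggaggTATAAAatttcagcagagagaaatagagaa
TATAAA was searched on the gene strand and its complement over the 250 bases before the start site. It was found in 4 of the 6 windows and in 10.7% of the 35116 windows of the table, at 29 to 24 bases before the start in GDF15 and TGFB2, at 30 to 25 bases before the downstream start of TGFB3 and at 11 to 6 bases before the start of INHBA. The GC box GGGCGG, searched on both strands in the same way, was found in 2 of the 6 windows against 42.6% of all. TGFB1 held it at 6 places and GDF15 at 2. No match was found for TGACGTCA, the cyclic AMP response element (1.65% of all windows), TGATGNAA, an ATF4-CEBP composite element (3.14%), TGANTCA, the AP-1 site (6.57%), or TGACNNNGC, the antioxidant response element (10.9%). TGANTCA and TGACNNNGC can overlap. The E-box CACGTG was found in 2 of the 6 windows (TGFB2 and the upstream start of TGFB3) against 6.34% of all, and CCTGCG, a response element of the CD44 intracellular domain, in 0 against 20.2%. The TATAAA match at the same place was shared by GDF15, which rose, and TGFB2, which fell.

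Libraries held 20261103 to 26287660 reads counted on genes. The 10 fibroblast markers (COL1A1, VIM and others) had reads in every library and summed to 458889 to 722451 normalised counts. The 12 markers of epithelial, endothelial and blood cells summed to 13.0 to 22.7 without tBHP and 24.4 to 38.6 after it, with 5 of them at 0 in all libraries (KRT5, SFTPC, SCGB1A1, CDH5 and MS4A1), and the part of these other markers in the results was not tested. Among those present, endothelial VWF (3.73 to 24.97 normalised counts) and CD68 (0.98 to 11.3) had reads in all 18 libraries. Replicates spread more after tBHP, with a median within-group SD of 0.17 on the log2 scale against 0.067 without it. In replicate 2 of the fNSF-HA cells after tBHP, the tenth of genes with the highest transcript GC content had a median deviation of -0.78 from the mean of the 9 tBHP libraries on the log2 scale, and the tenth with the lowest one of 0.48. That library stood apart from the other tBHP libraries, where the high-GC median ranged from -0.19 to 0.33. Member values that moved by over 1.5 times without it are given both ways beside the result.

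Without tBHP, the most abundant transcripts per length among the members were those of TGFB1 and INHBA. Per kilobase of exon, PBS cells had 1647 ± 33.2 normalised counts of TGFB1 and 1093 ± 40.0 of INHBA (SD, n = 3). GDF15 was far lower at 18.5 ± 1.82, followed by TGFB2 at 10.4 ± 0.58, TGFB3 at 5.28 ± 1.29 and INHBE at 3.54 ± 0.95. TGFB3 and INHBE, the lowest pair of this order, overlapped between libraries (3.80 to 6.16 and 2.48 to 4.30), whereas the other neighbours did not. After tBHP, GDF15 in PBS cells reached 1946 ± 540 per kilobase and stood between TGFB1 at 2834 ± 483 and INHBA at 1550 ± 155, and its libraries overlapped those of both neighbours. INHBE was then at 76.8 ± 9.83, TGFB3 at 20.4 ± 3.34 and TGFB2 at 5.28 ± 1.56, so that INHBE passed from the bottom of the order to above TGFB3 and TGFB2. These levels depend on the length taken. With the longest transcript in place of all exons, GDF15 stood at 3384 ± 940 beside 3314 ± 565 for TGFB1.

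GDF15, the stress-induced cytokine, was the member that rose most with tBHP in every pre-incubation. In PBS cells it had 35.7, 42.9 and 37.2 normalised counts without tBHP and 5341, 3213 and 3629 after it. In cNSF-HA cells the libraries held 43.9, 33.2 and 34.1 without and 3701, 3949 and 5101 after tBHP. In fNSF-HA cells they held 32.4, 37.4 and 29.8 without and 3040, 1578 and 4935 after tBHP. Every library with tBHP lay far above every library without it, and the lowest of the tBHP libraries was fNSF-HA replicate 2. The log2 change on the log2(value + 1) scale, which understates the change of low genes, was 6.65 in PBS cells (a description). It was 6.80 in cNSF-HA cells (SE 0.28, adjusted p = 2.83e-12 in limma's test) and 6.40 in fNSF-HA cells (SE 0.28, adjusted p = 5.62e-12). Less RNA per cell and fewer cells of a kind cannot be told apart in these bulk libraries, and this holds for all values here.

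INHBE, the activin βE chain, was nearly silent without tBHP and rose next most. It had 11.6, 7.46 and 13.0 normalised counts in PBS cells, 10.5, 12.7 and 6.20 with cNSF-HA and 29.4, 17.7 and 10.2 with fNSF-HA. After tBHP the values were 258, 199 and 237 in PBS cells, 208, 218 and 201 with cNSF-HA and 238, 222 and 278 with fNSF-HA. The groups with and without tBHP did not overlap in any pre-incubation, and after tBHP every library lay between 199 and 278. The log2 change was 4.34 in PBS cells (a description), 4.33 with cNSF-HA (SE 0.29, adjusted p = 2.23e-09) and 3.73 with fNSF-HA (SE 0.29, adjusted p = 1.57e-08). The smaller rise in fNSF-HA cells went with a higher level before tBHP in replicates 1 and 2.

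TGFB3, the least abundant TGF-β gene of unstressed PBS cells, rose as well. Its libraries held 28.97, 18.7 and 30.3 normalised counts in PBS cells and 82.8, 115 and 103 after tBHP. In cNSF-HA cells the values were 22.9, 33.2 and 34.1 without and 67.5, 81.2 and 86.4 after tBHP, and in fNSF-HA cells 34.3, 40.4 and 30.7 without and 92.1, 73.4 and 83.1 after tBHP. All tBHP libraries lay above all others. The log2 change was 1.93 in PBS cells (a description), 1.37 with cNSF-HA (SE 0.21, adjusted p = 3.64e-05) and 1.22 with fNSF-HA (SE 0.21, adjusted p = 0.000141).

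TGFB2 was the member that fell. It had 51.2, 56.9 and 52.7 normalised counts in PBS cells, 61.1, 53.8 and 48.6 with cNSF-HA and 65.7, 70.0 and 82.0 with fNSF-HA. After tBHP the values were 20.4, 25.0 and 36.1 in PBS cells, 20.0, 22.3 and 21.3 with cNSF-HA and 23.7, 24.5 and 21.6 with fNSF-HA. Every tBHP library lay below every library without tBHP, and PBS replicate 3 was the highest of them. The log2 change was -0.99 in PBS cells (a description), -1.31 with cNSF-HA (SE 0.19, adjusted p = 1.99e-05) and -1.60 with fNSF-HA (SE 0.19, adjusted p = 2.60e-06).

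TGFB1 and INHBA, the abundant members, changed by less than a doubling. TGFB1 had 5318, 5448 and 5235 normalised counts in PBS cells and 10971, 8091 and 8469 after tBHP. In cNSF-HA cells the values were 5756, 5486 and 5515 without and 8608, 8902 and 9854 after tBHP, and in fNSF-HA cells 5264, 4939 and 5295 without and 7248, 5066 and 9296 after tBHP. In fNSF-HA cells the groups overlapped because of replicate 2 after tBHP, and in the other pre-incubations they did not. The log2 change of TGFB1 was 0.77 in PBS cells (a description), 0.71 with cNSF-HA (SE 0.15, adjusted p = 0.000718) and 0.44 with fNSF-HA (SE 0.15, adjusted p = 0.0241). The call in fNSF-HA cells did not hold in every setting. Its adjusted p was 0.137 with only the compared groups in the fit (31.2% of genes called), 0.144 without replicate 3 after tBHP (a change of 0.23), 0.0727 without replicate 1 after tBHP and 0.0760 without replicate 2 before it, while the change was 0.67 without replicate 2 after tBHP. With each library's trend with GC content and transcript length removed, the change was 0.645 (adjusted p = 1.59e-12 in limma's test).

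INHBA, the activin βA chain, had 8693, 9257 and 9280 normalised counts in PBS cells, 7883, 8400 and 8741 with cNSF-HA and 9090, 9139 and 9027 with fNSF-HA. After tBHP it had 11583, 14159 and 12872 in PBS cells, 11756, 11736 and 9735 with cNSF-HA and 12365, 15512 and 10937 with fNSF-HA. All tBHP libraries lay above all libraries without it. The log2 change was 0.50 in PBS cells (a description), 0.40 with cNSF-HA (SE 0.10, adjusted p = 0.00364) and 0.49 with fNSF-HA (SE 0.10, adjusted p = 0.000936). Without replicate 2 after tBHP, the response in fNSF-HA cells was 6.83 for GDF15, 3.80 for INHBE, 1.30 for TGFB3, -1.63 for TGFB2 and 0.36 for INHBA.

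**Figure D1:**
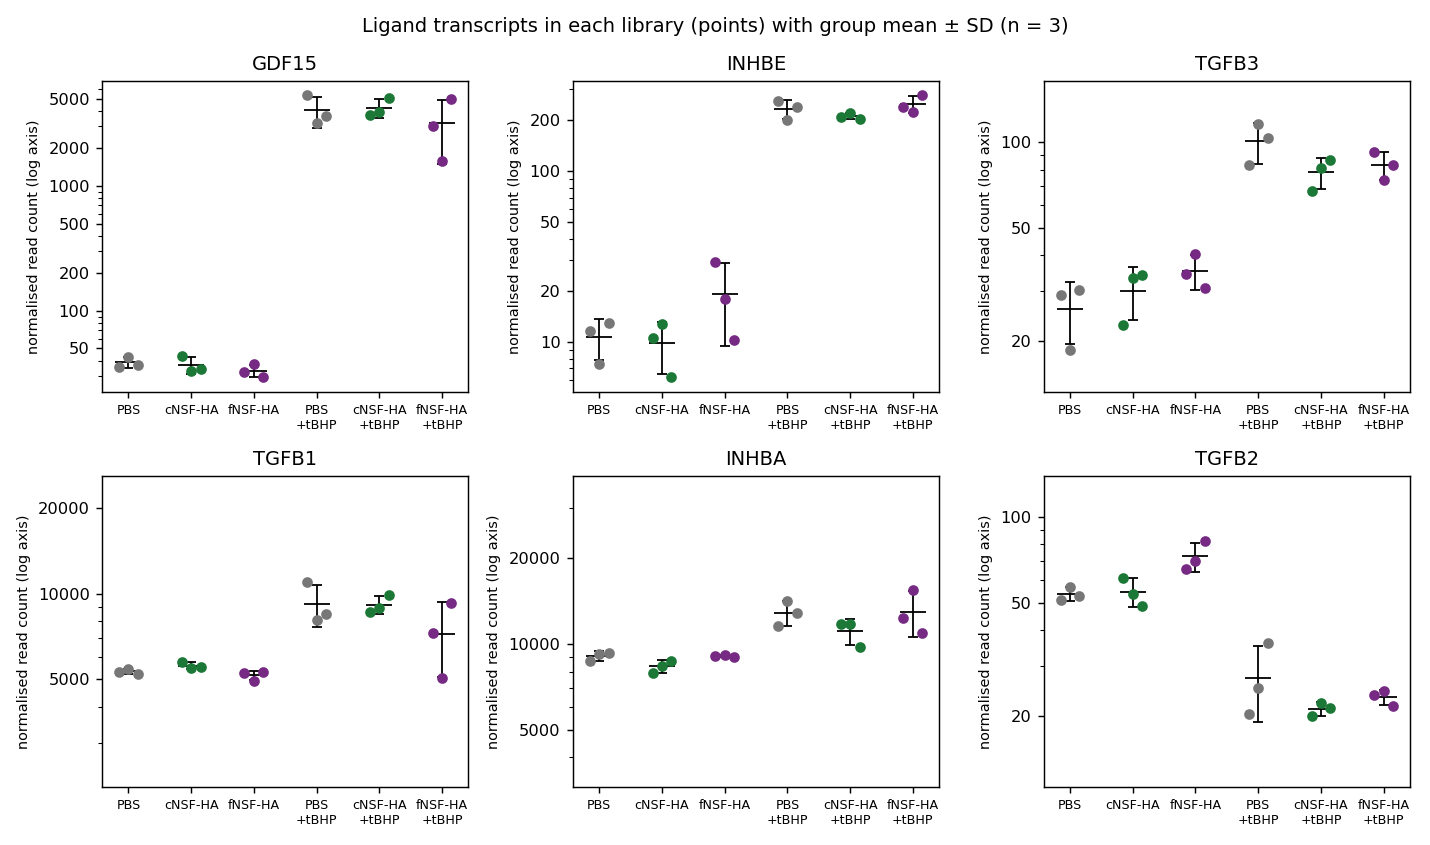
Normalised read counts of the 6 members (vertical log axes) in the 18 libraries, 1 point per library, with the group mean ± SD (n = 3) in black. GDF15 moves from 29.8 to 43.9 without tBHP to 1578 to 5341 after it, whereas TGFB2 is the only member whose tBHP libraries lie below the others.

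Counted together, 5 members rose and 1 fell in the cNSF-HA response, where 50.8% of the 13686 genes tested were called, 24% higher and 26.8% lower. The same 5 rose and TGFB2 fell in the fNSF-HA response, where 41.9% of genes were called, 19.2% higher and 22.7% lower. In libraries that did not overlap, the cNSF-HA response had 5 members higher and 1 lower, against 63.7% of all genes in either direction. In the fNSF-HA response 4 were higher, 1 was lower and TGFB1 overlapped, against 48.7% of all genes. In PBS cells 5 members lay higher and 1 lower without overlap, beside 63.8% of all genes, and nothing is read from that count because the rule used this comparison. In edgeR, with its own scaling, 52.6% of genes were called in the cNSF-HA response, 28.8% higher and 23.8% lower, and 43.2% in the fNSF-HA response, 24.2% higher and 19.1% lower, so that more genes were called higher than lower, the reverse of limma. A change past the threshold was common among all genes. The median log2 change of all genes was -0.00053 with cNSF-HA and -0.034 with fNSF-HA.

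**Figure D2:**
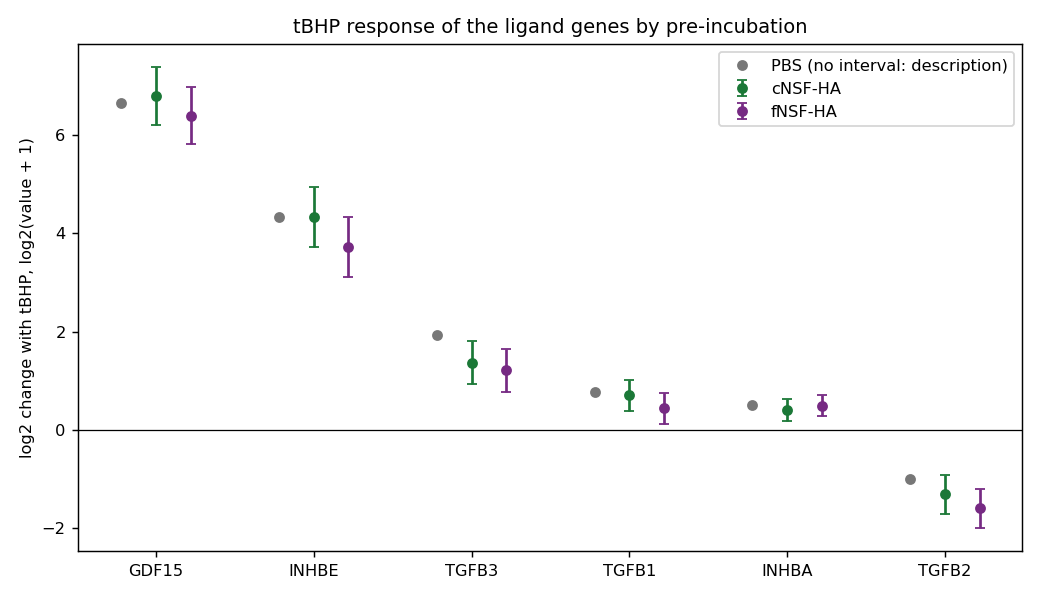
Log2 change with tBHP of each member, on the log2(value + 1) scale, after PBS (grey), cNSF-HA (green) and fNSF-HA (purple) pre-incubation, with 95% intervals from limma for the HA groups and none for PBS. GDF15 is near 6.4 to 6.8 and INHBE near 3.73 to 4.34, and TGFB2 is below 0 in all 3.

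The makeup of the TGF-β transcripts moved little in mass and more among the minor forms. Per kilobase of exon, TGFB1 made up at least 98.59% of the summed TGFB1, TGFB2 and TGFB3 level in every library. TGFB2 made up 0.61% ± 0.056 in cNSF-HA cells without tBHP and 0.15% ± 0.011 after it, and in fNSF-HA cells 0.87% ± 0.093 without and 0.22% ± 0.078 after it (SD, n = 3). The share of TGFB3 was 0.35% ± 0.081 without and 0.56% ± 0.043 after tBHP in cNSF-HA cells and 0.44% ± 0.079 without and 0.79% ± 0.18 after it in fNSF-HA cells. In PBS cells TGFB2 went from 0.63% ± 0.026 to 0.19% ± 0.074 and TGFB3 from 0.32% ± 0.083 to 0.74% ± 0.22. Per kilobase of exon, the group means of TGFB2 lay above those of TGFB3 without tBHP and below them after it. The order without tBHP depended on the length taken. Per kilobase of the longest transcript, TGFB2 and TGFB3 stood at 10.6 ± 0.59 and 9.59 ± 2.35 in PBS cells, at 10.8 ± 1.24 and 11.1 ± 2.30 in cNSF-HA cells and at 14.4 ± 1.67 and 13.0 ± 1.80 in fNSF-HA cells, whereas TGFB3 lay above TGFB2 after tBHP on this scale too.

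The question of the study was whether the polymer length of HA changes the response of the cells, and the members were compared between the HA groups. After tBHP, 0 of the 6 members passed the threshold between the HA groups in limma's test (1 member with an unadjusted p under 0.05), and 0 passed in edgeR and in DESeq2. Of all genes 0% were called by limma and 5.79% by DESeq2. The log2 difference, cNSF-HA minus fNSF-HA, was 0.55 for GDF15 (95% interval -0.03 to 1.14, adjusted p = 0.174) and 0.38 for TGFB1 (0.07 to 0.69, adjusted p = 0.106). INHBA differed by -0.21 (-0.43 to 0.0050, adjusted p = 0.162), INHBE by -0.23 (-0.84 to 0.39, adjusted p = 0.597), TGFB2 by -0.13 (-0.52 to 0.27, adjusted p = 0.658) and TGFB3 by -0.08 (-0.52 to 0.36, adjusted p = 0.802). INHBE was the only member whose libraries did not overlap, with those of cNSF-HA cells below those of fNSF-HA cells, beside 13.4% of all genes without overlap in either direction. The intervals leave room for differences of more than a doubling for GDF15, and they do not show that the HA groups were alike.

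The difference of TGFB3 was 0.021 without cNSF-HA replicate 1 after tBHP. Those of GDF15, TGFB1 and INHBA turned on single libraries of the fNSF-HA cells after tBHP, and that of INHBE was -0.14 without replicate 3. Without replicate 3, 3 members passed (GDF15 with a log2 difference of 0.94 and an adjusted p of 0.00493, TGFB1 with 0.59 and 0.00228, and INHBA with -0.33 and 0.0147, all in limma's test), among 40.8% of all genes called. Without replicate 2, the differences of GDF15, TGFB1 and INHBA were 0.12, 0.15 and -0.08, that of TGFB3 was -0.17 and 0 members passed. In that replicate, GDF15 deviated from the mean of the 9 tBHP libraries by -1.20 on the log2 scale, TGFB1 by -0.72 and INHBA by 0.35. The GC content of the longest transcript is 62.9% for GDF15 and 63.5% for TGFB1, above 93.4% and 94.3% of the genes tested, whereas it is 39.1% for INHBA and 38.9% for TGFB2, above 12.9% and 11.9%. It is 53.9% for INHBE and 48.9% for TGFB3. Once each library was freed of its trend with the GC content and length of transcripts, the difference between the HA groups was 0.09 for GDF15, -0.05 for TGFB1, 0.05 for INHBA and 0.13 for TGFB2, so that the last 3 changed sign. INHBE and TGFB3 were at -0.35 and -0.07. The part of GC content beyond this alternative was not tested.

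**Figure D3:**
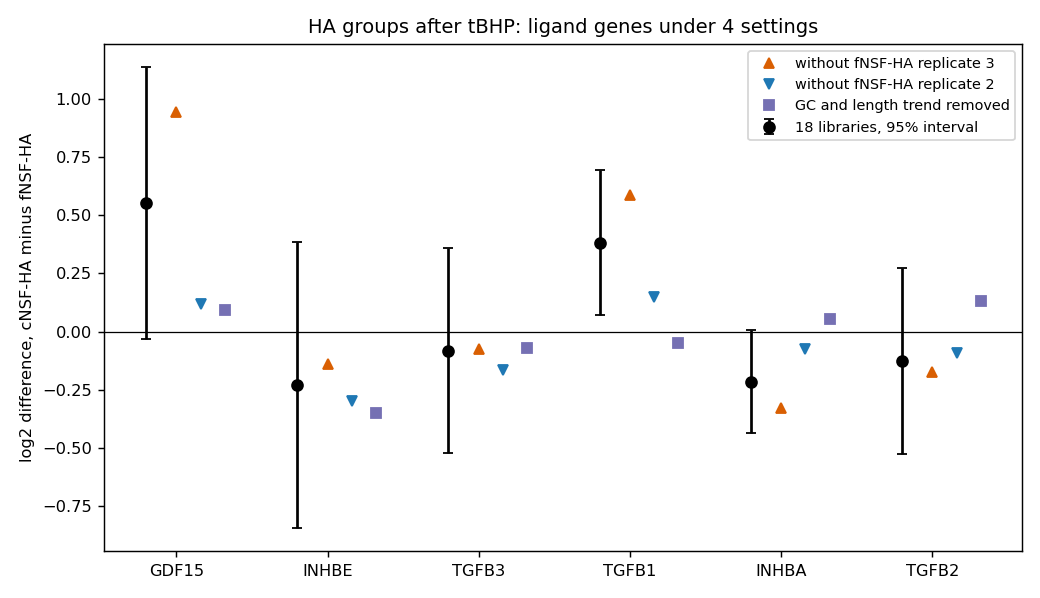
Log2 difference of each member between the HA groups (cNSF-HA minus fNSF-HA) after tBHP, with all 18 libraries (black, 95% interval), without fNSF-HA replicate 3 or 2 after tBHP (triangles) and with the GC and length trend removed (squares). GDF15 moves from 0.55 to 0.94 without replicate 3, to 0.12 without replicate 2 and to 0.09 with the trend removed.

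**Figure D4:**
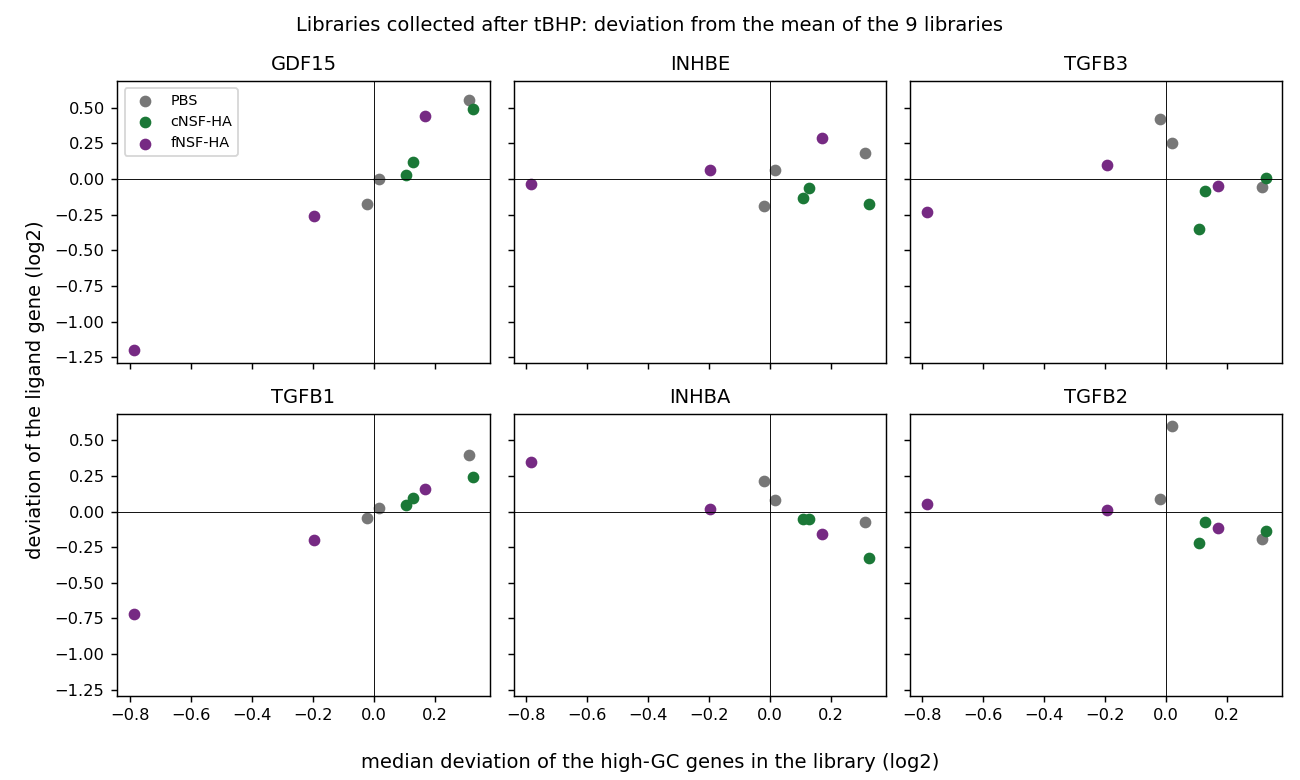
For the 9 libraries collected after tBHP, the log2 deviation of each member from the mean of the 9 (vertical) against the median deviation of the tenth of genes with the highest GC content in that library (horizontal), 1 point per library. GDF15 and TGFB1 lie along a rising line and INHBA along a falling line, with fNSF-HA replicate 2 at the left end at -0.78.

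Against PBS cells after tBHP, where the HA comparisons share the PBS libraries, GDF15 and INHBE have no test because the PBS libraries chose them. GDF15 differed by 0.09 in cNSF-HA cells and by -0.47 in fNSF-HA cells, and INHBE by -0.14 and 0.09. The value of GDF15 in fNSF-HA cells was -0.03 without fNSF-HA replicate 2 after tBHP, -0.86 without replicate 3 and -0.16 with the GC and length trend removed. That of INHBE was 0.16 without replicate 2 and 0.17 with the trend removed. In cNSF-HA cells GDF15 was at -0.07 without PBS replicate 2 after tBHP, at 0.30 without PBS replicate 1 and at -0.07 with the GC and length trend removed, so its sign is not settled. INHBE was at -0.06 without PBS replicate 1 with cNSF-HA and at -0.01 without PBS replicate 2 with fNSF-HA. Of the other 4 members, 0 passed in either comparison in limma, edgeR or DESeq2 (unadjusted p under 0.05 in limma for 0 members after cNSF-HA and 1 after fNSF-HA), beside 0% of all genes called after cNSF-HA and 0.139% after fNSF-HA. In cNSF-HA cells TGFB3 differed by -0.35 (95% interval -0.79 to 0.09), TGFB2 by -0.31 (-0.70 to 0.09), INHBA by -0.22 (-0.44 to 0.0020) and TGFB1 by 0.0021 (-0.31 to 0.31). The value of TGFB2 was -0.09 without PBS replicate 3 after tBHP and -0.48 without PBS replicate 1 after tBHP, and that of INHBA was -0.13 without cNSF-HA replicate 3 after tBHP. In fNSF-HA cells TGFB1 differed by -0.38 (-0.69 to -0.07, adjusted p = 0.164), and by -0.59 with an adjusted p of 0.00371 without fNSF-HA replicate 3, when 29.4% of all genes were called. Without replicate 2 it differed by -0.15 (adjusted p = 0.723 in limma). It differed by -0.04 with the GC and length trend removed. INHBA passed in that last setting alone, at -0.19 (adjusted p = 0.0252), beside 0.503% of genes. With all libraries INHBA differed by -0.0030, and without replicate 2 by -0.14. The differences in fNSF-HA cells were -0.27 (-0.71 to 0.17) for TGFB3 and -0.18 (-0.58 to 0.22) for TGFB2. They were -0.16 for TGFB3 without PBS replicate 2, and for TGFB2 0.04 without PBS replicate 3 and -0.36 without PBS replicate 1, all after tBHP. TGFB2 was at -0.38 with the GC and length trend removed.

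Without tBHP, 0 of the 6 members passed between the HA groups in limma, edgeR or DESeq2 (2 with an unadjusted p under 0.05 in limma), beside 0% of all genes. The difference, cNSF-HA minus fNSF-HA, was -0.83 for INHBE (95% interval -1.45 to -0.22, unadjusted p = 0.0108, adjusted p = 0.9999) and -0.41 for TGFB2 (-0.81 to -0.0084, unadjusted p = 0.0458, adjusted p = 0.9999). The value of INHBE was -0.48 without fNSF-HA replicate 1 and -1.19 without replicate 3. INHBE overlapped between these groups, at 6.20 to 12.7 against 10.2 to 29.4, and TGFB2 did not, at 48.6 to 61.1 against 65.7 to 82.0. INHBA and TGFB1 also did not overlap, so that 2 members were lower and 1 was higher in cNSF-HA cells, against 25% of all genes in either direction. When only these groups were fitted, with the small spread of the unstressed libraries, INHBA (-0.12, adjusted p = 0.00803) and TGFB1 (0.11, adjusted p = 0.0184) passed beside 7.16% of all genes, and the same pair passed with a fit within the libraries without tBHP, beside 6.88%. With the GC and length trend removed, the differences were -0.03 for INHBA and 0.01 for TGFB1.

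Against unstressed PBS cells, which serve both HA groups, GDF15 and INHBE again have no test, because these libraries also chose them. Of the other 4 members, 0 passed after cNSF-HA and 0 after fNSF-HA in limma, edgeR or DESeq2 (0 and 2 with an unadjusted p under 0.05 in limma), beside 0% of all genes in each. After fNSF-HA the log2 differences were 0.42 for TGFB2 (95% interval 0.03 to 0.82), 0.44 for TGFB3 (0.0057 to 0.88), -0.05 for TGFB1 (-0.36 to 0.26) and 0.0020 for INHBA (-0.22 to 0.22). Without PBS replicate 2, TGFB3 was at 0.23. With all libraries TGFB2 and TGFB3 lay above all PBS libraries without overlap, beside 14% of all genes without overlap in either direction. As a description, INHBE differed by 0.70 after fNSF-HA (0.35 without fNSF-HA replicate 1 and 1.06 without replicate 3) and by -0.13 after cNSF-HA, and GDF15 by -0.21 and -0.06. After cNSF-HA the differences of the 4 members tested ranged from -0.12 for INHBA to 0.21 for TGFB3. The value of TGFB3 rested on single libraries, with 0.00087 without PBS replicate 2 and 0.39 without cNSF-HA replicate 1. With all libraries 1 member, TGFB1, lay above the PBS libraries without overlap, beside 15.2% of all genes.

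Whether the tBHP response itself differed between the HA groups was tested as the difference of the responses. It passed for 0 of the 6 members in limma, edgeR and DESeq2 (0 with an unadjusted p under 0.05) and for 0% of all genes. The response in cNSF-HA cells minus that in fNSF-HA cells was 0.40 for GDF15 (95% interval -0.43 to 1.23, adjusted p = 0.725), 0.60 for INHBE (-0.27 to 1.47, adjusted p = 0.710), 0.28 for TGFB2 (-0.28 to 0.85, adjusted p = 0.722), 0.27 for TGFB1 (-0.17 to 0.71, adjusted p = 0.710), 0.15 for TGFB3 (-0.47 to 0.77, adjusted p = 0.859) and -0.09 for INHBA (-0.40 to 0.22, adjusted p = 0.827). Without fNSF-HA replicate 2 after tBHP, it was -0.030 for GDF15, 0.037 for TGFB1, 0.066 for TGFB3 and 0.049 for INHBA. For GDF15 and TGFB1 it was 0.79 and 0.47 without fNSF-HA replicate 3 after tBHP. For INHBE it was 0.25 without fNSF-HA replicate 1 before tBHP and 0.97 without replicate 3 before tBHP.

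Of 27 other ligands of the superfamily, 21 had a read in some library and 6 were abundant enough to be tested. In each HA group 1 of the 6 rose with tBHP and 2 fell (median log2 change 0.11 with cNSF-HA and -0.05 with fNSF-HA). Here and for each list that follows, the share of all genes called is 50.8% with cNSF-HA (24% higher and 26.8% lower) and 41.9% with fNSF-HA (19.2% higher and 22.7% lower). BMP6, known for its part in iron balance, rose from 22.8 ± 6.77 to 213 ± 38.3 normalised counts in cNSF-HA cells, a log2 change of 3.20 (SE 0.20, adjusted p = 8.33e-10), and by 2.62 in fNSF-HA cells (adjusted p = 1.14e-08). INHBB, the activin βB chain, fell, with log2 changes of -0.82 in cNSF-HA cells (adjusted p = 0.00986) and -1.53 in fNSF-HA cells (adjusted p = 7.55e-05). The other that fell, named after its values were seen, was BMP4, with log2 changes of -0.88 and -1.12 (adjusted p = 0.0139 and 0.00361).

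Of 16 receptors and coreceptors, 12 were tested, and in cNSF-HA cells 1 rose and 4 fell (median -0.19) while in fNSF-HA cells 1 rose and 2 fell (median -0.04). ACVR1, a type I receptor for activins and bone morphogenetic proteins, rose by a log2 change of 0.88 (SE 0.07) and 1.05 (adjusted p = 9.12e-09 and 9.11e-10). TGFBR3, or betaglycan, which presents TGF-β2 to the signalling receptors, fell by 1.27 and 1.26 (adjusted p = 0.000561 and 0.000757). TGFBR2, the type II receptor of TGF-β, fell by 0.44 and 0.24 (adjusted p = 0.000419 and 0.0376). GFRAL, the receptor of GDF15, was listed at 0 in all libraries, and RET had at most 10.9 normalised counts.

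Of 28 genes for latency, activation and antagonists, 24 were tested. In cNSF-HA cells 4 rose and 10 fell (median -0.07), and in fNSF-HA cells 2 rose and 7 fell (median -0.16), beside 26.8% and 22.7% of all genes called lower. BMPER, a binder of bone morphogenetic proteins, fell, with log2 changes of -2.16 and -2.11 (adjusted p = 6.55e-08 and 9.11e-08). NOG, which encodes the antagonist noggin, fell by 1.27 and 1.81 (adjusted p = 9.30e-06 and 1.63e-07). LRRC32, which holds latent TGF-β at the cell surface, fell by 1.28 and 0.99 (adjusted p = 9.95e-06 and 0.000177), and THBS1, an activator of latent TGF-β, by 0.82 and 0.86 (adjusted p = 3.34e-06 and 2.34e-06). The genes named here, picked by the largest changes, fell in both HA groups, and the 4 and 2 genes that rose are not among them.

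Of 14 genes tested that are known to answer to TGF-β, 5 rose and 4 fell in each HA group (median 0.03 with cNSF-HA and 0.04 with fNSF-HA), beside 24% of all genes called higher and 26.8% lower with cNSF-HA, and 19.2% and 22.7% with fNSF-HA. PMEPA1, a feedback inhibitor of TGF-β signalling, rose by 0.79 and 0.69 on the log2 scale (adjusted p = 8.16e-07 and 4.24e-06), SMAD7, the inhibitory SMAD, by 0.64 and 0.50 (adjusted p = 1.19e-06 and 2.02e-05) and BHLHE40, a transcriptional repressor, by 0.59 and 0.59 (adjusted p = 6.23e-07 and 7.82e-07). CTGF, a matrix-associated growth factor, fell by 0.68 and 0.90 (adjusted p = 6.10e-09 and 1.58e-10), from 31658 ± 598 to 19733 ± 664 normalised counts in cNSF-HA cells.

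Of 11 genes known as regulators of GDF15 or INHBE, 10 were tested, and 9 rose in each HA group (median 1.22 with cNSF-HA and 1.27 with fNSF-HA). HIF1A, which fell by 0.41 in cNSF-HA cells (adjusted p = 0.00470), changed by -0.25 in fNSF-HA cells (adjusted p = 0.0793) and was named after its values were seen. ATF3, a stress-induced transcription factor, rose by 3.91 (SE 0.13, adjusted p = 3.80e-13) and 4.30 (adjusted p = 1.46e-13), from 37.9 ± 4.94 to 584 ± 60.4 normalised counts in cNSF-HA cells. DDIT3, which encodes CHOP, rose by 3.04 and 3.11 (adjusted p = 4.15e-12 and 3.33e-12), CEBPB by 1.66 and 1.48 (adjusted p = 6.60e-09 and 2.98e-08) and ATF4 by 1.43 and 1.38 (adjusted p = 4.37e-11 and 7.24e-11). Between the HA groups after tBHP, 0 of the 66 genes tested from these 5 lists passed in limma and in edgeR. In DESeq2, 2 passed, beside 5.79% of all genes. In limma, 27 had an unadjusted p under 0.05, as did 4412 of all 13686 genes.

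**Figure D5:**
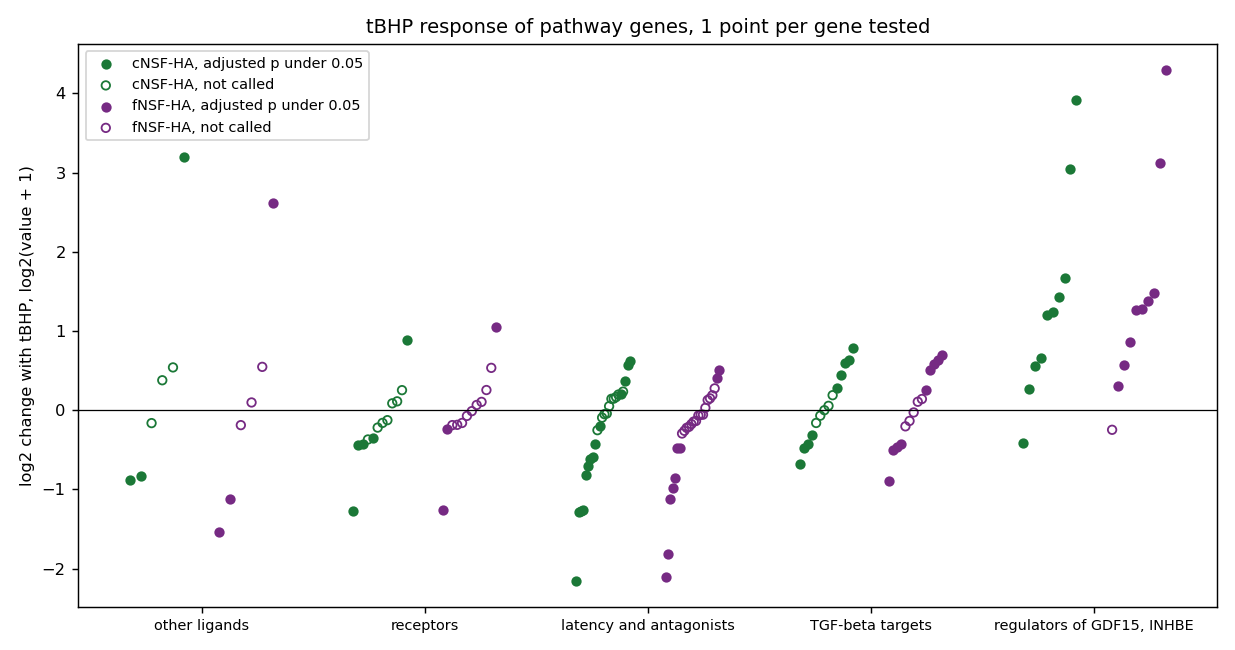
Log2 change with tBHP of the tested genes of 5 lists, on the log2(value + 1) scale, in cNSF-HA (green) and fNSF-HA (purple) cells, 1 point per gene, filled where the adjusted p is under 0.05. The regulators lie mostly above 0, with ATF3 highest at 3.91 and 4.30, and the latency and antagonist genes reach furthest below 0, with BMPER at -2.16 and -2.11.

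Likeness over the 18 libraries was measured by the root mean square difference of log2(value + 1), after each profile was centred on its mean. It is a description, and what made profiles alike was not tested. For GDF15 the most alike genes were MT1G (0.57), RP11-443P15.2 (1.02) and HSPA6 (1.08). For INHBE they were AKR1C1 (0.47), TRIB3 (0.48) and RP4-756G23.5 (0.54). TGFB3 was closest to MT-RNR1 (0.24), PSAT1 (0.26) and TSPYL2 (0.26), and TGFB2 to DDAH1 (0.20), C4orf46 (0.21) and LGR4 (0.22). The abundant members had far closer neighbours: TBX2 (0.054), SNX21 (0.056) and JUN (0.060) for TGFB1, with transcripts of 61.4%, 56.7% and 56.7% GC, and RAB2B (0.057), CNOT4 (0.061) and NORAD (0.065) for INHBA, with 43.0%, 38.8% and 41.6%.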

How the data were processed

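RNA from 18 IMR90 libraries was sequenced by the authors from poly(A) RNA with a TruSeq RNA V2 kit, which does not mark strand, as single-end reads of 100 nt. The submitters' processing notes name Trimmomatic 0.32, STAR 2.5.2b, featureCounts of Subread 1.5.0-p3, DESeq2 and GRCh38.p7. The annotation version is not given in the sources used here. The deposited values are a signal, gene counts divided by DESeq2 size factors, and no length is taken into account. The deposited p-value and q-value columns hold a comparison of the authors and were not used. Each value was a whole number of reads times the worth of 1 read in its library (100% of values, tolerance 0.01 read), so reads were recovered. Depth was 20261103 to 26287660 reads.

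Groups followed the labels. The members and lists were chosen with earlier results of these data known. limma 3.58.1 with a mean-variance trend (R 4.3.3) was fitted to log2(value + 1) of 13686 of 56269 genes, those with a mean of at least 10, with all 18 libraries and 6 group means. GDF15 and INHBE were left out of the tests against PBS libraries, which chose them, with tBHP as designed and without tBHP by a later decision. P-values were two-sided, Benjamini-Hochberg adjusted over all genes tested and called under 0.05. From each list the up to 4 genes with the largest change in the cNSF-HA response were named, among those with a mean of at least 50 that passed in both HA groups. For likeness the 3 closest genes were named. Alternatives were pseudocounts of 0.1 and 5, no filter on low values, a minimum mean of 50, quantile normalisation, median rescaling, the replicate number as a block, edgeR 4.0.16 and DESeq2 1.42.0 on the recovered reads, only the groups compared, removal of each library's trend with GC content and length (GENCODE 29, 12528 genes), and the leaving out of every library, 1 at a time. A fit within each tBHP state was added after seeing the data. The scripts were tested on simulated data.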

Additional observations from a re-analysis of the deposited data

How the results depend on the processing

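The replicate number did not pair the libraries (45 correlations of same-numbered deviations ranged from -0.12 to 0.33, and in 0 of 15 pairs of groups were all over 0.1), and with the replicate block the members called stayed at 6 and 6 in the HA responses and 0 in each other comparison. Between the HA groups without tBHP, 2 members were called with only the groups compared and 2 with a fit within each tBHP state, which was chosen after seeing the data; against PBS after tBHP, 1 was called in fNSF-HA cells with the GC and length trend removed. With 1 library left out, the members called ranged from 5 to 6 in the fNSF-HA response, from 0 to 3 between the HA groups after tBHP (3 without fNSF-HA replicate 3) and from 0 to 1 for fNSF-HA against PBS after tBHP. The share of all genes called is not given for the replicate block or for the HA responses with 1 library left out. Nothing about the members is read from those counts. With the GC and length trend removed, the difference between the HA groups after tBHP was 0.054 for INHBA, -0.047 for TGFB1 and 0.13 for TGFB2. The difference of the responses was then 0.085 for INHBA, -0.060 for TGFB1, 0.032 for GDF15 and 0.44 for TGFB2. Values near 0 changed sign with the scaling. TGFB1 in cNSF-HA against PBS cells after tBHP was -0.0082 with quantile normalisation, -0.0018 in edgeR, -0.0078 in DESeq2 and -0.084 with the trend removed. INHBA in fNSF-HA against PBS cells was 0.011 with quantile normalisation and 0.0053 in DESeq2 after tBHP, and without tBHP it was -0.023 with quantile normalisation, -0.00090 with median rescaling, -0.0098 in edgeR, -0.0018 in DESeq2 and -0.032 with the trend removed. With 1 library left out, sign changes were seen in cNSF-HA against PBS without tBHP for GDF15 (-0.19 to 0.013), INHBE (-0.35 to 0.14) and TGFB2 (-0.066 to 0.096), in cNSF-HA against PBS after tBHP for GDF15 (-0.065 to 0.30) and TGFB1 (-0.082 to 0.14), in fNSF-HA against PBS after tBHP for INHBE (-0.014 to 0.17), INHBA (-0.14 to 0.11) and TGFB2 (-0.36 to 0.037) and without tBHP for INHBA (-0.029 to 0.018), between the HA groups after tBHP for TGFB3 (-0.17 to 0.021), and in the difference of responses for GDF15 (-0.030 to 0.79), INHBA (-0.20 to 0.049) and TGFB3 (-0.030 to 0.25). The cause was not tested. Of all genes, DESeq2 called 793 between the HA groups after tBHP where limma called 0, and 451 for fNSF-HA against PBS after tBHP where limma called 19 and edgeR 36. TGFB2 has no value at a minimum mean of 50. INHBE and TGFB3 without tBHP rest on few reads, which limits what can be told there.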
